A study of Mus musculus with 15 samples.

Results

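Neuregulins and their relatives are secreted or membrane-bound growth factors, and the ErbB proteins are the receptor tyrosine kinases that they bind. The 8 genes described here are 4 ligand genes (Nrg1, Nrg2, Nrg3 and Hbegf) and the 4 ErbB receptor genes (Egfr, Erbb2, Erbb3 and Erbb4), found by symbol among the 26145 genes listed for single cells of the mouse prefrontal cortex (PFC). They were chosen as a family of ligands and receptors, with earlier results of these data known. Their levels were followed over 8 cell classes, over the finer cell clusters, over 2 ages and over cocaine or saline self-administration.

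As background, the ligands carry an EGF-like domain and are often shed from membrane precursors by metalloproteases. A bound receptor pairs with a second ErbB receptor and is phosphorylated, mostly leading to the Ras-MAP kinase and PI3 kinase pathways. EGFR binds HB-EGF, ERBB3 binds neuregulin 1 and 2, and ERBB4 binds neuregulins and HB-EGF. ERBB2 has no known ligand and serves as a partner, and ERBB3 has little kinase activity of its own. In the cortex ERBB4 is best known from interneurons, where it takes part in the formation of synapses onto and from these cells, and ERBB3 is known from the oligodendrocyte lineage.

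Single cells from the PFC of male C57BL/6N mice were captured in droplets, and RNA molecules were counted by unique molecular identifiers (UMIs). The data consist of 15 libraries, each described by the authors as made from the pooled tissue of a pair of mice. Of these, 12 are from adult mice of 8 to 10 weeks (P60) after intravenous self-administration of cocaine or saline, with 2 libraries for each treatment during the maintenance phase, after 48 h of withdrawal and after 15 days of withdrawal. The other 3 are from mice of 3 weeks (P21) without self-administration. Since the saline mice had been through food training, catheter surgery and lever pressing, age and this history cannot be told apart in the comparison of P21 with P60 saline mice. The paper also mentions a bias from different sequencing technologies where P21 cells were matched to P60 clusters. Any such technical difference between the ages cannot be told apart from age either. One label names the nucleus accumbens (NAc) as the tissue, while titles and source names give the PFC.

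The deposited annotation retains 35360 cells, 24822 at P60 and 10538 at P21. P60 libraries held 1055 to 3784 of these cells and 8375172 to 42892922 UMIs, and P21 libraries 2791 to 4439 cells and 19765973 to 40972771 UMIs. The median number of UMIs per cell ran from 3426 to 11334.5 over the P60 libraries and from 5718 to 8369 over the P21 libraries. No library pair shared more than 1.09% of the cell barcodes of its smaller member. Levels are given as CPM, the UMIs of a gene per 1000000 UMIs of the same cell class or cluster in a library, with mitochondrial and ribosomal protein genes left out. CPM values were compared between classes, ages and treatments for 1 gene at a time and not between genes, since transcripts differ in length and in how well they are captured.

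The class labels matched their marker genes at P60, which is no independent check. The authors had named the classes by markers that include Slc17a7, Gja1, Pdgfra, Bmp4, C1qa and Flt1. Gad1 stood at 1621 CPM in inhibitory neurons and at 1.10 CPM in excitatory neurons, and the glutamate transporter gene Slc17a7 at 410 CPM in excitatory neurons. Gja1 reached 1063 CPM in astrocytes, Pdgfra 775 CPM in oligodendrocyte precursors (OPC), Bmp4 1000 CPM in newly formed oligodendrocytes (NF Oligo), Mog 3055 CPM in oligodendrocytes (Oligo), C1qa 13058 CPM in microglia and Flt1 2646 CPM in endothelial cells (Endo). The class labelled endothelial also held the pericyte markers Pdgfrb and Kcnj8, at 269.6 and 289 CPM, so that it is a vascular class with endothelial genes leading. Slc17a7 was also seen in every other class, at 27.2 to 70.8 CPM, and its part in the values below was not tested.

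**Figure D1:**
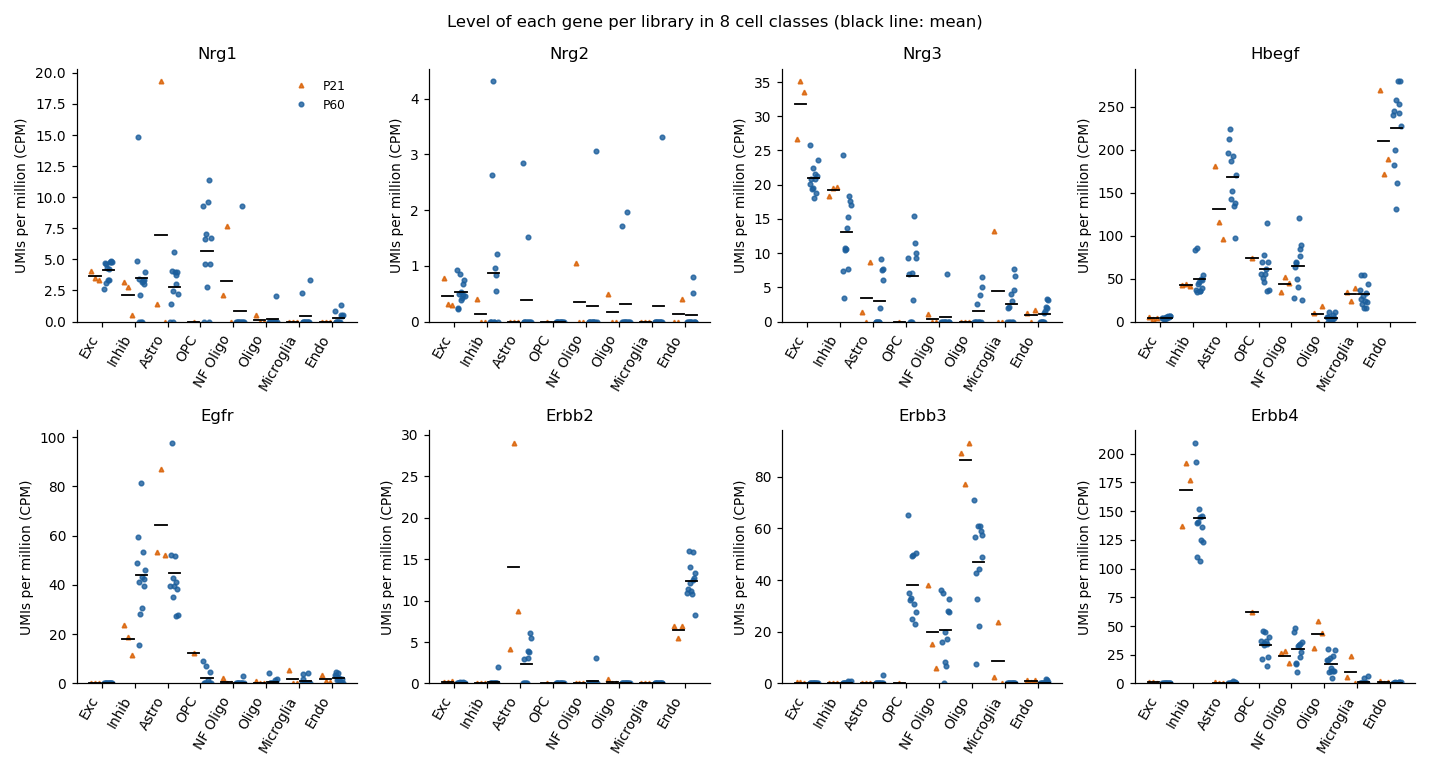
Level of each of the 8 genes in 8 cell classes. The vertical axes give CPM (from 0 and on a separate scale for each gene), each point is 1 library with at least 10 cells of the class, circles and triangles mark P60 and P21, and black lines are means. Hbegf was spread over several classes, while Erbb4 was led by inhibitory neurons, Erbb3 by oligodendrocyte lineage cells and Erbb2 by endothelial cells.

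Among the ligands, Nrg3 was highest in neurons. NRG3 is a membrane-anchored neuregulin that binds ERBB4. Over the 12 P60 libraries, Nrg3 in excitatory neurons had its lowest value at 18.1 CPM, its median at 20.8 CPM and its highest at 25.7 CPM. Inhibitory neurons followed at 13.1 ± 5.79 CPM (SD, n = 12) and OPC at 6.60 ± 5.19 CPM (n = 11). Each of these steps down passed an exact paired permutation test over libraries (sign flips, two-sided, adjusted over 56 neighbouring pairs of classes), with adjusted p = 0.0152 for excitatory against inhibitory neurons, 0.0137 for inhibitory neurons against OPC and 0.0292 for OPC against astrocytes. Astrocytes, microglia, oligodendrocytes, endothelial cells and NF Oligo all averaged below 3 CPM and their order was not resolved.

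Within excitatory neurons Nrg3 was present in all 26 clusters. The pooled P60 level ran from 15.5 CPM in Exc_11 to 29.7 CPM in Exc_26, with a median over clusters of 20.1 CPM. Exc_26 expressed the deep-layer genes Fezf2 (244 CPM) and Etv1 (188 CPM), and the second highest, Exc_2 at 28.8 CPM, the upper-layer genes Calb1 (262 CPM) and Cux2 (157 CPM). The inhibitory clusters were more spread, from 5.09 CPM in Inhib_12 to 45.8 CPM in Inhib_5 and 39.7 CPM in the Vip-rich Inhib_4. The 2 highest inhibitory values rest on 21 and 16 UMIs.

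Nrg1, which encodes neuregulin 1 with its many isoforms, was low everywhere. OPC averaged 5.70 ± 3.75 CPM (n = 11), excitatory neurons 4.13 ± 0.79 CPM (n = 12), inhibitory neurons 3.51 ± 3.93 CPM (n = 12) and astrocytes 2.79 ± 1.77 CPM (n = 11). None of the 7 neighbouring pairs of classes differed, and the OPC value rests on 15 UMIs against 832 UMIs in excitatory neurons. Among excitatory clusters Nrg1 was highest in Exc_18 at 10.6 CPM (27 UMIs), a cluster with the layer 6 markers Foxp2 (121 CPM) and Syt6 (75.5 CPM), and next in Exc_26 at 8.90 CPM (32 UMIs). The lowest was Exc_14 at 2.19 CPM. Among inhibitory clusters Inhib_10, with Vip at 6094 CPM, had 15.8 CPM from 7 UMIs, and 6 of 12 clusters had no UMI.

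Nrg2 was close to the limit of detection. Its class means at P60 were all under 1 CPM, with 106 UMIs in excitatory neurons and 8 UMIs in inhibitory neurons, and OPC had none in 11 libraries. None of the 7 neighbouring pairs in the order of levels differed, and pairs further apart were not tested. An Nrg2 UMI was found in 0.727% of excitatory neurons (Wilson 95% interval 0.601 to 0.879%, median depth 13620 UMIs) and in 0.0561% of endothelial cells (0.0154 to 0.204%, median depth 4516 UMIs), and after thinning to 2000 UMIs in 0.115% and 0.0196%. The thinned share was 0.138% in inhibitory neurons, 0.103% in NF Oligo (from 1 cell), 0.0728% in oligodendrocytes and 0.0685% in astrocytes. In microglia it was 0.00644%, and in OPC 0.

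Hbegf, the gene of heparin-binding EGF-like growth factor, was highest in endothelial cells and astrocytes. Over the P60 libraries its level in endothelial cells was 131 CPM at the lowest, 241 CPM at the median and 280.3 CPM at the highest. In astrocytes the lowest, median and highest were 97.2, 170.4 and 224 CPM. Endothelial cells were higher than astrocytes in 9 of 11 libraries (exact paired permutation test, adjusted p = 0.0292), and astrocytes higher than NF Oligo in 11 of 11 (exact paired permutation test, adjusted p = 0.00911).

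The classes below these fell into steps. NF Oligo averaged 64.9 ± 28.2 CPM, OPC 61.2 ± 22.0 CPM and inhibitory neurons 49.3 ± 17.5 CPM, and these neighbours did not differ beyond their spread. Microglia had 31.5 ± 13.3 CPM, below inhibitory neurons (exact paired permutation test, adjusted p = 0.0224). Excitatory neurons and oligodendrocytes came last, at 4.74 ± 1.24 and 4.69 ± 4.03 CPM. At least 1 Hbegf UMI was found in 48.8% of P60 endothelial cells (Wilson 95% interval 47.2 to 50.5%, median depth 4516 UMIs), in 42.0% of astrocytes and in 1.77% of oligodendrocytes (median depth 3626 UMIs). When every cell was thinned to 2000 UMIs these shares were 27.8%, 27.3% and 0.955%.

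Hbegf varied within classes too. Endothelial clusters ran from 120 CPM in Endo_13 to 330 CPM in Endo_1 and 358 CPM in Endo_2. The pericyte marker Kcnj8 was highest in Endo_5 (715 CPM), Endo_6 (603 CPM) and Endo_4 (592 CPM), where Hbegf stood at 171, 193 and 195 CPM, in the lower part of the range. Endo_7, with Kcnj8 at 12.0 CPM, had Hbegf at 239 CPM. The other pericyte marker Pdgfrb was at 415 to 468 CPM in Endo_4, Endo_5 and Endo_6, but also at 362 CPM in Endo_2 and 289 CPM in Endo_1, where Hbegf was highest, and at 101 CPM in Endo_13, where it was lowest. Inhibitory clusters ran from 14.4 CPM in the Sst-rich Inhib_2 to 163 CPM in Inhib_12, a small cluster of 30 cells. Excitatory clusters had a median of 3.00 CPM, and the highest were Exc_23 at 24.7 CPM (208 UMIs) and Exc_10 at 16.3 CPM (181 UMIs). Both expressed Rorb, at 210 and 289 CPM.

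Among the receptors, Erbb4 followed the inhibitory neurons. In the 12 P60 libraries its level in this class was 106 CPM at the lowest, 140 CPM at the median and 209.7 CPM at the highest. OPC averaged 33.4 ± 9.75 CPM, NF Oligo 29.6 ± 11.9 CPM and oligodendrocytes 17.3 ± 8.29 CPM. Inhibitory neurons exceeded OPC in 11 of 11 libraries (exact paired permutation test, adjusted p = 0.00911), and oligodendrocytes exceeded microglia in 12 of 12 (exact paired permutation test, adjusted p = 0.00911). Excitatory neurons had 0.36 ± 0.14 CPM and astrocytes 0.27 ± 0.64 CPM. An Erbb4 UMI was seen in 54.9% of inhibitory neurons (median depth 8038 UMIs) against 0.138% of microglia (median depth 3214 UMIs), where it serves as a background value, and after thinning to 2000 UMIs in 21.2% against 0.0650%.

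Every inhibitory cluster contained Erbb4, at levels from 25.0 to 247 CPM. The highest was Inhib_6, the cluster with the most Pvalb (1611 CPM), at 247 CPM from 44 cells. It was followed by Inhib_5 at 229 CPM and by the Vip-rich Inhib_4 at 201 CPM. The 2 lowest were the clusters with the most Sst. Inhib_1 had 25.0 CPM of Erbb4 at 40338 CPM of Sst, and Inhib_2 34.5 CPM at 22921 CPM of Sst. The Vip-rich Inhib_9 (157 CPM) and Inhib_10 (104 CPM) lay between.

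Egfr was shared by 2 classes. Astrocytes averaged 44.8 ± 19.3 CPM (n = 11) and inhibitory neurons 44.2 ± 16.5 CPM (n = 12), with a paired difference of 0.41 ± 32.7 CPM (SD over 11 libraries), so that their order was not resolved. In both classes single libraries ranged widely, from 27.3 to 97.9 CPM and from 15.8 to 81.4 CPM. The next class, OPC, had 2.05 ± 3.37 CPM, below inhibitory neurons in 11 of 11 libraries (exact paired permutation test, adjusted p = 0.00911). Excitatory neurons had 20 UMIs in all, at 0.09 ± 0.08 CPM. An Egfr UMI was found in 21.3% of inhibitory neurons (median depth 8038 UMIs) and in 13.3% of astrocytes (median depth 3512 UMIs). The share in excitatory neurons was 0.138%, at a median depth of 13620 UMIs. After thinning to 2000 UMIs the shares were 7.13% in inhibitory neurons, 7.74% in astrocytes and 0.0287% in excitatory neurons. The higher share in inhibitory neurons than in astrocytes was thus not kept at equal depth.

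Egfr UMIs came from 7 of the 12 inhibitory clusters. Inhib_7, rich in Npy (29563 CPM), had 83.9 CPM of Egfr. The Vip-rich Inhib_4 had 59.5 CPM, Inhib_8, also rich in Npy (15968 CPM), had 59.2 CPM and the Vip-rich Inhib_9 had 42.0 CPM. In the other 5 clusters no Egfr UMI was counted, among them both Sst-rich clusters, Inhib_1 and Inhib_2. Inhib_1 was rich in Npy too (21260 CPM), so a high Npy level did not always go with Egfr. The limit that a count of 0 allows (3 UMIs) is 2.88 CPM in Inhib_2 and 8.33 CPM in Inhib_1. Of the P60 inhibitory neurons with an Egfr UMI, 74.0% (188 of 254) also had an Erbb4 UMI, against 54.9% of all inhibitory neurons. The overlap was not compared at equal depth. Astrocyte clusters ran from 22.8 CPM in Astro_1 to 57.5 CPM in Astro_5.

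Erbb2 was low and mainly vascular. In endothelial cells the P60 libraries gave 8.21 CPM at the lowest, 12.3 CPM at the median and 16.0 CPM at the highest. Astrocytes had 2.29 ± 2.38 CPM, below endothelial cells in 11 of 11 libraries (exact paired permutation test, adjusted p = 0.00911). No Erbb2 UMI was counted in 1578 oligodendrocytes, 1448 microglia or 767 OPC of the P60 libraries, and for oligodendrocytes this allows a share of cells with a UMI of up to 0.243% (Wilson 95% interval). The last exon of Erbb2 is overlapped by a gene on the other strand, 1810046J19Rik, and how the authors' counting treated strand was not given in the sources used here. Among endothelial clusters Endo_11 was highest with 25.6 CPM (19 UMIs).

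Erbb3 followed the oligodendrocyte lineage. Its P60 level in oligodendrocytes was 7.51 CPM at the lowest, 52.9 CPM at the median and 70.8 CPM at the highest, the lowest being a saline maintenance library with 41 oligodendrocytes and 1 Erbb3 UMI. OPC averaged 38.3 ± 13.3 CPM and NF Oligo 20.7 ± 12.2 CPM. The order oligodendrocytes, OPC, NF Oligo held at each step (exact paired permutation tests, adjusted p = 0.0444 and 0.0292), and all other classes were at or below 0.302 CPM. The intermediate stage of the lineage had the lowest mean of the 3. An Erbb3 UMI was found in 15.7% of oligodendrocytes (median depth 3626 UMIs) against 0.0762% of excitatory neurons. Oligodendrocyte clusters ran from 18.6 CPM in Oligo_13 to 89.8 CPM in Oligo_1.

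The genes whose levels ran most like each member over the 82 clusters with at least 50 P60 cells were found by Pearson correlation of log2(CPM + 1) among 12177 genes. These clusters share libraries and differ in depth, so the values are descriptive. The closest genes to Erbb3 were Gjc3 (r = 0.97), Sox10 (0.96) and Ugt8a (0.96), to Erbb2 Ppic (0.94), Ephb4 (0.94) and Tead2 (0.93), and to Hbegf Lpp (0.89), Jam2 (0.88) and S1pr1 (0.87). Nrg3 ran most like Prkar1b (0.87), Syp (0.87) and Sult4a1 (0.87), Egfr like Gm5607 (0.83), Gdf10 (0.82) and Prr5 (0.82), and Erbb4 like Adarb2 (0.80), Qpct (0.79) and Ust (0.78). Correlations were lower for Nrg1, at 0.75 for Mrpl45 and 0.74 for both Dlg4 and Ppa1, and lowest for Nrg2, at 0.47 for Pcnxl2, 0.45 for Lpcat4 and 0.43 for Ubr3.

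P21 was compared with P60 to ask which of these levels change over adolescence. UMIs were summed per library and class and tested with edgeR between 3 P21 and up to 6 P60 saline libraries, and a gene was taken to change at a Benjamini-Hochberg adjusted p below 0.05 over all genes of the class and a change above 1.5-fold. Of 56 member and class pairs in 7 classes, 16 passed the filter on low counts, and 3 changed. Egfr rose in inhibitory neurons, and Erbb3 and Erbb4 fell in oligodendrocytes. OPC could not be tested, since only 1 P21 library had 10 or more of these cells.

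The background of change differed greatly between classes. Among all genes tested, 19.3% changed in excitatory neurons, 14.0% in inhibitory neurons, 17.8% in oligodendrocytes, 12.7% in endothelial cells, 1.94% in NF Oligo, 1.11% in astrocytes and 0.726% in microglia. The members stood at 0 of 4 in excitatory neurons, 1 of 4 in inhibitory neurons, 2 of 2 in oligodendrocytes, 0 of 2 in endothelial cells, 0 of 1 in NF Oligo, 0 of 2 in astrocytes and 0 of 1 in microglia. The median log2 fold change of the 16 tests was 0.11, while the medians over all genes of a class lay between -0.0048 and 0.055.

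**Figure D2:**
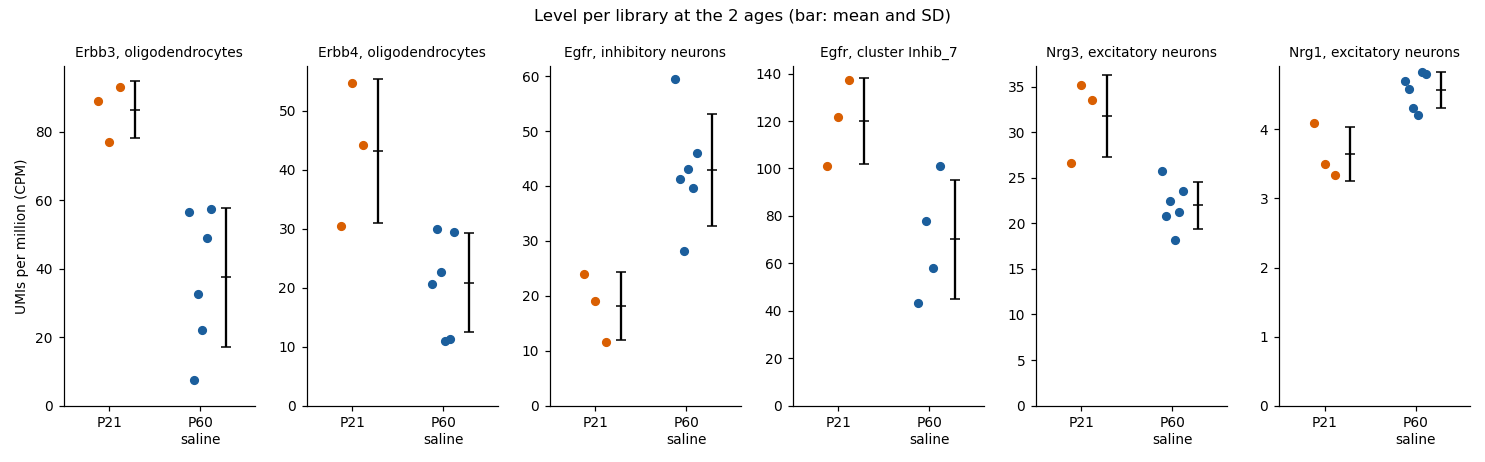
Levels at the 2 ages. The vertical axes give CPM from 0, each point is 1 library of P21 or of P60 saline mice, and bars give the mean and SD. For Egfr in inhibitory neurons all 6 P60 saline libraries lie above the 3 P21 libraries, and for Erbb3 in oligodendrocytes all 6 lie below.

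Egfr in inhibitory neurons was 11.6, 19.0 and 23.9 CPM in the 3 P21 libraries. In the 6 P60 saline libraries the lowest value was 28.1 CPM, the median 42.1 CPM and the highest 59.4 CPM, so that the ages did not overlap. The log2 fold change was 1.15 (SE 0.23, adjusted p = 0.00225). The share of inhibitory neurons with an Egfr UMI, at 2000 UMIs per cell, was 4.00% at P21 and 7.13% over all 12 P60 libraries.

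This rise of Egfr went with a different make-up of the inhibitory class. Inhib_7, the cluster with the highest Egfr level, made up 7.90% of the inhibitory neurons at P21 and 35.7% in P60 saline mice, while Inhib_2, without an Egfr UMI at P60, went from 35.4% to 7.82%. Within Inhib_7 the level was 101, 122 and 137 CPM at P21, and 43.4, 58.1, 77.8 and 101 CPM in the 4 P60 saline libraries with at least 10 of its cells. The fitted difference in this cluster was -0.69 on the log2 scale (SE 0.29, adjusted p = 0.205), opposite in sign to that of the whole class. Of the 5 clusters with at least 10 Egfr UMIs, 4 had a lower pooled level at P60 than at P21.

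The same was computed with the make-up held fixed, each cluster being weighted by its share of the UMIs of the class instead of its share of cells. No error was computed for these values, and the smallest P21 cluster, Inhib_3, held 12 cells. Summed over libraries, Egfr stood at 18.6 CPM at P21 and at 41.3 CPM in P60 saline mice. With the P60 levels of each cluster at the P21 make-up the value was 15.9 CPM, and with P21 levels at the P60 make-up it was 63.8 CPM. The rise of Egfr in inhibitory neurons was thus present with the make-up of each age and absent with the make-up held at that of P21. P21 cells had been assigned by the authors to clusters defined at P60, and the part of this assignment in the shares was not tested. Without the Inhib_7 cells, an alternative added after seeing the data, the difference in the class was 0.85 on the log2 scale (adjusted p = 0.0981).

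**Figure D3:**
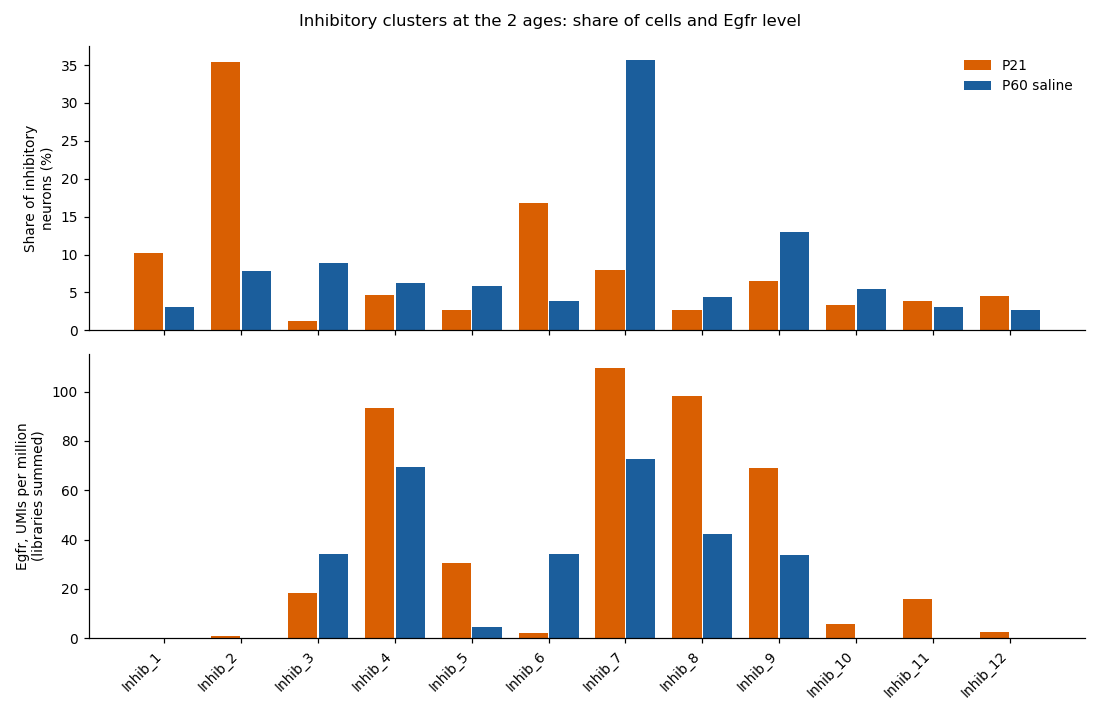
Inhibitory clusters at the 2 ages. The upper panel gives the share of inhibitory neurons in each cluster in percent, and the lower panel the Egfr level in CPM with libraries summed, with bars from 0 for P21 and P60 saline mice. Inhib_7 went from 7.90% to 35.7% of the cells, and its Egfr level was lower at P60.

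Erbb4 in inhibitory neurons did not pass the test between the ages. It was 137, 177 and 192 CPM at P21 and ran from 109.9 to 193 CPM in P60 saline mice, with a log2 fold change of -0.28 (SE 0.15, adjusted p = 0.194). With the P60 levels at the P21 make-up, the pooled value would be 107 CPM against 165 CPM at P21. With the P21 levels at the P60 make-up it would be 157 CPM against 139 CPM in P60 saline mice, a smaller gap. The size of the fall thus depends on the make-up chosen, and 10 of 12 clusters were lower at P60. Inhib_2 made up 35.4% of the inhibitory neurons at P21 but held 44 cells in P60 saline mice. In Inhib_2 the difference was -1.43 (SE 0.47, adjusted p = 0.176) and in Inhib_7 0.17 (SE 0.25, adjusted p = 0.810), neither past the test.

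In oligodendrocytes Erbb3 was 77.2, 89.0 and 93.2 CPM at P21. In P60 saline mice the lowest value was 7.51 CPM, the median 40.8 CPM and the highest 57.5 CPM, all below the P21 libraries. The log2 fold change was -1.07 (SE 0.26, adjusted p = 0.00799), and -0.996 without the library with 41 oligodendrocytes. At 2000 UMIs per cell the expected share of oligodendrocytes with an Erbb3 UMI was 13.8% at P21 and 7.97% over all 12 P60 libraries.

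Erbb4 in oligodendrocytes was 30.5, 44.3 and 54.8 CPM at P21 and between 11.03 and 30.03 CPM in P60 saline mice, with a median of 21.6 CPM. The gap between the ages was narrow. The log2 fold change was -1.09 (SE 0.32, adjusted p = 0.0230). The call was lost with DESeq2 (adjusted p = 0.0759) and without any of 3 single libraries, which are given with the alternatives.

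The average levels of other genes of oligodendrocytes also differed between the 3 P21 and all 12 P60 libraries. Enpp6, a marker of newly formed cells, averaged 182 CPM at P21 and 108 CPM at P60, and Aspa, a marker of mature cells, averaged 675 and 1045 CPM. The median depth of the oligodendrocytes was 4164 to 5732 UMIs over P21 libraries and 2690 to 4691 UMIs over P60 saline libraries. The part of these differences in the falls of Erbb3 and Erbb4 was not tested. P21 oligodendrocytes carry no finer cluster names, so a fixed make-up could not be computed for them.

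In excitatory neurons Nrg3 was lower at P60 by less than 1.5-fold, and a smaller difference of Nrg1 in the other direction lost its significance under several alternatives. Nrg3 was 26.7, 33.5 and 35.2 CPM at P21 and ran from 18.1 to 25.7 CPM with a median of 21.8 CPM in P60 saline mice, without overlap. Its log2 fold change was -0.48 (SE 0.12, adjusted p = 0.00558). Nrg1 averaged 3.64 ± 0.40 CPM at P21 (n = 3) and 4.57 ± 0.26 CPM at P60 (n = 6), with a log2 fold change of 0.38 (SE 0.14, adjusted p = 0.0488). The adjusted p of Nrg1 rose to 0.116 with DESeq2 and to 0.228 with all 12 P60 libraries, and with each library left out it ran from 0.0352 to 0.173, below 0.05 only without the first P21 library. Median depth of the excitatory neurons was 7345 to 11457 UMIs over the P21 libraries and 11898 to 14834 UMIs over the P60 saline libraries. At 2000 UMIs per cell the expected share with an Nrg3 UMI was 5.60% at P21 and 3.86% over all 12 P60 libraries. With the make-up of clusters held at that of P21, the pooled P60 level of Nrg3 was 22.7 CPM against 30.5 CPM at P21, close to the 21.5 CPM with the P60 make-up.

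Within clusters Nrg3 gave all the changes found and most of the tests. Over 29 neuronal clusters, 27 of 232 member and cluster pairs passed the filter on low counts and 4 changed, where 10.6% of all gene and cluster tests did so. Of the 27 pairs, 22 were of Nrg3, 3 of Erbb4, 1 of Hbegf and 1 of Egfr. Nrg1, Nrg2, Erbb2 and Erbb3 could be tested in no cluster. All 4 were falls of Nrg3. The 4 clusters were also those with the highest shares of all genes changed. These were 1396 of 6222 tested genes in Exc_24, 1824 of 8868 in Exc_25, 1334 of 6804 in Exc_22 and 1297 of 8571 in Exc_19. In Exc_24 the P21 libraries had 31.8, 36.8 and 58.2 CPM, and 5 P60 saline libraries ran from 7.74 to 20.7 CPM (log2 fold change -1.25, SE 0.30, adjusted p = 0.00267). In Exc_19 the values were 24.6, 40.9 and 45.4 CPM against 5.70 to 24.7 CPM (-1.16, SE 0.27, adjusted p = 0.00339), touching at the edge. In Exc_22 they were 32.2, 37.2 and 47.4 CPM against 12.5 to 23.4 CPM (-1.04, SE 0.29, adjusted p = 0.00917), without overlap. The fall in Exc_22 was not called with at least 30 cells a library.

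The smallest of the 4, in Exc_25, was -0.72 (SE 0.21, adjusted p = 0.0121), and there the ranges of 28.3 to 43.2 CPM at P21 and 14.6 to 32.2 CPM at P60 overlapped for Nrg3. These 4 clusters had Cux2 and Calb1 at no more than 7.65 CPM. Exc_22, Exc_24 and Exc_25 had Rorb at 77.9 to 104 CPM, and Exc_19 had the layer 6 genes Foxp2 at 150.0 CPM and Syt6 at 92.5 CPM. Of the 22 excitatory clusters in which Nrg3 could be tested, 20 had a fold change below 0. The exceptions were Exc_2 at 0.59 (SE 0.31, adjusted p = 0.229) and Exc_26 at 0.16 (SE 0.30, adjusted p = 0.867). With all 12 P60 libraries the fall of Nrg3 was also called in Exc_8, Exc_10, Exc_13 and Exc_14 (-0.63 to -0.95), so the set of clusters depends on the libraries used. Whether clusters differ among themselves in this change was not tested.

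**Figure D4:**
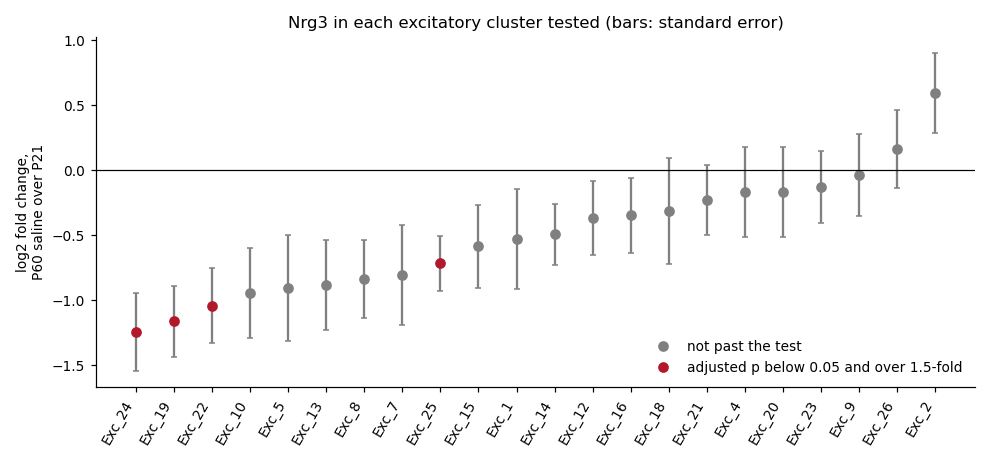
Change of Nrg3 with age in each of 22 excitatory clusters. The vertical axis gives the log2 fold change of P60 saline mice over P21, bars are standard errors, and red points passed an adjusted p below 0.05 and 1.5-fold. The red points are Exc_19, Exc_22, Exc_24 and Exc_25, and 20 of the 22 points lie below 0.

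In inhibitory neurons Nrg3 was 18.3 to 19.6 CPM at P21 and 3.44 to 17.7 CPM in P60 saline mice (log2 fold change -0.45, SE 0.26, adjusted p = 0.244). The ratio of excitatory to inhibitory level did not differ detectably between the ages (difference 0.31 on the log2 scale, exact permutation test, two-sided, p = 0.667, the only member with at least 10 CPM in both classes).

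Erbb2 in endothelial cells was 5.46, 6.89 and 6.97 CPM at P21 and 8.21 to 16.0 CPM in P60 saline mice, without overlap, but missed the threshold (log2 fold change 0.72, SE 0.27, adjusted p = 0.0866). With all 12 P60 libraries it was 0.80 (adjusted p = 0.0139). Hbegf was tested in 6 classes with an absolute log2 fold change of 0.39 or less, and none passed. In endothelial cells Hbegf averaged 209.7 ± 52.3 CPM at P21 and 204 ± 56.0 CPM at P60, and in astrocytes 131 ± 44.4 and 163 ± 30.2 CPM. Egfr in astrocytes averaged 64.3 ± 19.8 CPM at P21 and 40.1 ± 8.88 CPM at P60, with a fold change of -0.64 (SE 0.33, adjusted p = 0.404).

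Other genes of the pathway were counted from a list of 43, with further ligands, proteases, receptor partners and inhibitors, signalling proteins and feedback inhibitors. Of the list, 42 genes were found among the symbols, the one missing being Hras, which older annotations list as Hras1. The further ligands Egf, Tgfa, Areg, Ereg, Btc, Epgn and Nrg4 passed the filter in no class, nor did Lrig3. Between the ages 17 of 161 gene and class tests changed, 2 up and 15 down. In excitatory neurons 8 of 34 changed, beside 19.3% of all genes there. Shc1, an adaptor protein gene, rose (0.84, SE 0.26). The largest falls were of Gab1, a docking protein gene (-2.30, SE 0.41), and of Spry2, an inhibitor that the MAP kinase pathway itself induces (-1.45, SE 0.16). Shc1 and Gab1 passed the filter on low counts in no single neuronal cluster. The median over the 34 genes was -0.32, against -0.0048 over all genes tested in that class.

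In endothelial cells 7 of 33 changed, beside 12.7% of all genes. Sos1, a Ras activator, rose (0.85, SE 0.16), and the largest falls were of Dusp6, a phosphatase for ERK (-1.05, SE 0.12), and of Errfi1, an inhibitor of ErbB kinases (-1.04, SE 0.24). Spry2 fell in inhibitory neurons (-1.67, SE 0.47), the only change of 29 where 14.0% of all genes changed, and Map2k1 in oligodendrocytes (-0.83, SE 0.24), the only change of 18 where 17.8% of all genes changed. No gene of the list changed in astrocytes (21 tested), NF Oligo (13) or microglia (13) by edgeR, where 1, 0 and 2 had an unadjusted p below 0.05.

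Of the feedback inhibitors on the list, Spry2 and Dusp6 fell in many neuronal clusters. Spry2 fell in 18 of 24 clusters tested, with log2 fold changes of -0.88 to -2.46, and Dusp6 in 14 of 28, with -0.75 to -1.77. Spred1 rose in 1 of 28 and fell in none, and Spry4 passed the filter in no cluster. Errfi1 changed in 0 of 6 by edgeR, with an unadjusted p below 0.05 in 2. Adam10, a metalloprotease gene, fell in 12 of 27. Mapk3, which encodes ERK1, rose in 5 of 28 (0.62 to 1.15). Over the whole list 73 of 580 gene and cluster tests changed, 6 up and 67 down, beside the 10.6% of all gene and cluster tests that changed, so the share called in the list was near the background. Its median was -0.21, and the medians over all genes tested in a cluster lay between -0.02 and 0.02. The libraries are the same in every cluster, so these counts are not independent of each other.

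The P60 libraries were used to ask whether cocaine changed the family at each phase. Cocaine and saline were compared within a phase, 2 libraries against 2, in 1 edgeR fit over all 12. Among all gene and class tests 0.0115% changed at maintenance, 0.00827% at 48 h and 0.339% at 15 days. Of the members, 0 of 13 tests changed at maintenance, 1 of 18 at 48 h and 0 of 18 at 15 days (1, 1 and 0 had an unadjusted p below 0.05, and DESeq2 called none). At maintenance only 5 classes could be tested, since 1 saline library had too few astrocytes, OPC and NF Oligo.

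The change at 48 h was of Hbegf in endothelial cells. The 2 saline libraries had 131 and 161 CPM and the 2 cocaine libraries 258 and 280.3 CPM. The log2 fold change was 0.97 (SE 0.16, adjusted p = 0.0243). The saline pair at 48 h was the lowest of all 12 P60 libraries, and the other 8 libraries, from the other phases, ran from 182 to 280.1 CPM, a range that takes in the lower cocaine library and ends just below the higher one. The P21 libraries ran from 171 to 269 CPM. The saline pair at 48 h thus lay below the range of the other phases, and the cocaine pair at its upper end.

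**Figure D5:**
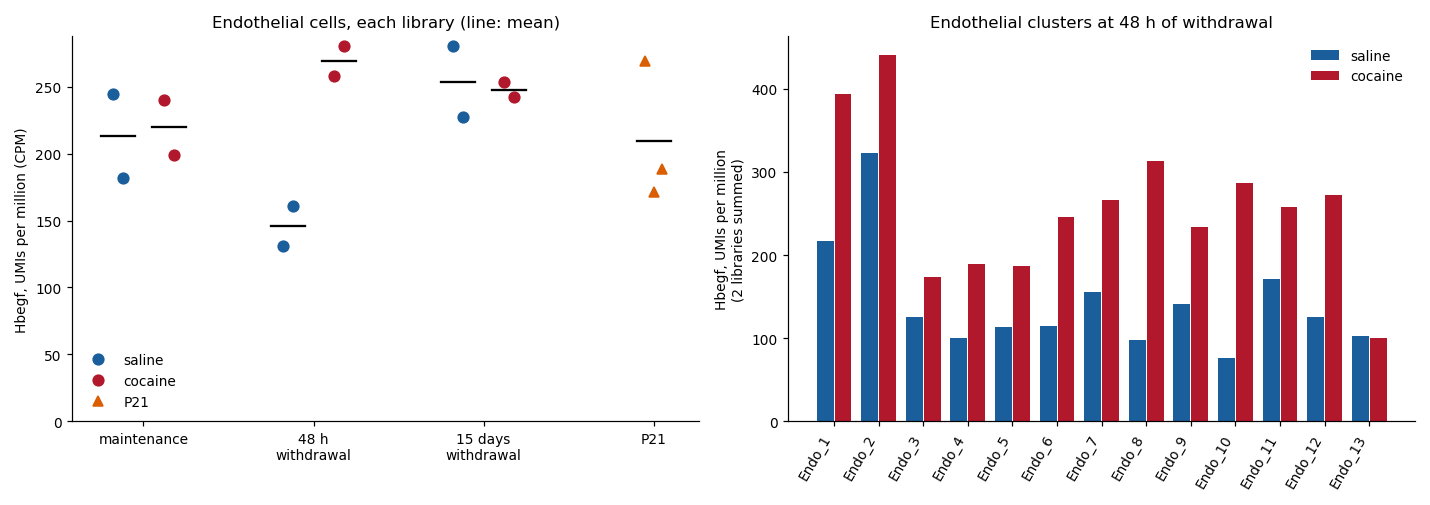
Hbegf in endothelial cells. The left panel gives CPM in each library by phase and treatment and at P21, with lines for means, and the right panel gives CPM at 48 h in 13 endothelial clusters with the 2 libraries of a treatment summed. At 48 h the saline libraries had 131 and 161 CPM and the cocaine libraries 258 and 280.3 CPM, and 12 of 13 clusters were higher with cocaine.

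The difference in Hbegf was seen in most endothelial clusters. In 12 of 13 endothelial clusters the summed cocaine value was above the saline value. One example is Endo_10, at 286 against 75.8 CPM (43 against 10 UMIs), and the exception was Endo_13 at 100.3 against 102 CPM. Some clusters were small, such as Endo_3 with 5 cocaine cells and 4 UMIs. The clusters are parts of the same 4 libraries, so their agreement adds no replicates. The share of endothelial cells with an Hbegf UMI was 40.0 and 37.1% with saline and 52.2 and 52.6% with cocaine, at median depths of 4399, 4285, 3966 and 5095 UMIs. The endothelial gene Flt1 was at 2602 and 2422 CPM with saline and at 2534 and 2610 CPM with cocaine. Cldn5, a tight junction gene, was at 1461 and 1121 CPM with saline and at 1745 and 2186 CPM with cocaine. It was thus also higher with cocaine, but was not among the genes that passed the test. The pericyte marker Kcnj8 ran from 251 to 338 CPM over the 4 libraries. Endo_12 made up 20.2% of the endothelial cells of 1 cocaine library and 5.51% or less in the other 3, and the part of these differences was not tested.

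The other phases gave no such difference. Cocaine over saline for Hbegf in endothelial cells was 0.07 at maintenance and -0.03 at 15 days on the log2 scale. Equal cocaine effects over the 3 phases were tested in 5 classes, where 0.0138% of all tests passed and 0 of 13 member tests did. For Hbegf in endothelial cells this gave an unadjusted p = 0.000219 and an adjusted p = 0.732 in the edgeR fit, so that the effect at 48 h was not shown to differ from that in the other phases. The call at 48 h was lost without the first saline or the second cocaine library, with 0.79 (adjusted p = 0.385) and 0.87 (adjusted p = 0.577) on the log2 scale. The only other gene that changed in endothelial cells at 48 h was Cdkn1a, a cell cycle inhibitor (0.99, SE 0.17, adjusted p = 0.0243).

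In other classes at 48 h Hbegf averaged 147 ± 6.63 CPM with saline and 190.1 ± 3.94 CPM with cocaine in astrocytes, and 42.2 ± 17.2 against 20.4 ± 5.68 CPM in microglia, neither past the test. The fold change in NF Oligo was 0.88 on the log2 scale, close in size to that in endothelial cells but with a wider error (SE 0.67, adjusted p = 0.997), from 54.4 ± 19.3 CPM with saline and 85.2 ± 49.6 CPM with cocaine. In OPC the Hbegf difference was 0.32 (SE 0.41, adjusted p = 0.999). Whether the difference in Hbegf varied between classes was not tested. The other member with an unadjusted p below 0.05 was Nrg1 in excitatory neurons at maintenance, at 2.64 and 3.11 CPM with cocaine against 4.59 and 4.70 CPM with saline (log2 fold change -0.72, unadjusted p = 0.0115, adjusted p = 0.735). No gene of the pathway list changed, with 0 of 133 tests at maintenance, 0 of 190 at 48 h and 0 of 190 at 15 days by edgeR, and 8, 10 and 14 with an unadjusted p below 0.05.

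On the NCBIM37 build (mm9), Nrg1 (ENSMUSG00000062991) lies on chr8:32928500-33119581, Nrg2 (ENSMUSG00000060275) on chr18:36177333-36357034, Nrg3 (ENSMUSG00000041014) on chr14:39182138-40286376 and Hbegf (ENSMUSG00000024486) on chr18:36664583-36675459, all on the minus strand. Egfr (ENSMUSG00000020122) lies on chr11:16652206-16818161 and Erbb2 (ENSMUSG00000062312) on chr11:98273784-98299030, both on the plus strand. Erbb3 (ENSMUSG00000018166) lies on chr10:128004579-128026708 and Erbb4 (ENSMUSG00000062209) on chr1:68078760-69154633, both on the minus strand. Nrg3 spans 1104239 bases, Erbb4 1075874 bases and Hbegf 10877 bases. The counts are per gene, so isoforms, which are many for Nrg1, were not separated.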

How the data were processed

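Single-cell libraries of the mouse PFC were made by the authors with the 10x Chromium platform. The authors aligned reads to mm9 and counted UMIs with Cell Ranger, and the deposited values are raw UMI counts per gene and cell, without normalization. Cell classes and clusters were named by the authors with Seurat 2.1.0 on the same cells, P21 cells by their likeness to P60 clusters. The authors removed cells with unusually many genes as likely doublets and, by the deposited fraction of mitochondrial UMIs of each cell, damaged cells. The class was taken from the finer cluster name (it differs from the class column for 33 P60 and 459 P21 cells).

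Counts of retained cells were summed per library and class or cluster (at least 10 cells a library), without 13 mitochondrial and 143 ribosomal protein genes (8.83 to 11.1% of UMIs), leaving 25989 genes. Tests used edgeR 4.0.16 in R 4.3.3 (filterByExpr, TMM, robust quasi-likelihood), after a check on simulated counts. A gene was called when its p, adjusted by Benjamini and Hochberg, was below 0.05 and it changed over 1.5-fold. Exact permutation tests and Wilson intervals used scipy 1.17.1. Intervals cover counting error only. Named genes were the 8 members, the 3 genes most like each, and from a list of 43 pathway genes the 2 largest rises and falls a class. Feedback genes, Adam10 and Mapk3 in clusters, markers and Cdkn1a were named after their values were seen. Members and lists were chosen with earlier results of these data known. Libraries are the replicates. Each pools a pair of mice, but the methods give 4 P21 mice for 3 libraries, so P21 libraries may share animals. Replicates were numbered in order of accession. Alternatives are given at the end. Gene positions come from the Ensembl annotation of NCBIM37.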

Additional observations from a re-analysis of the deposited data

Results flagged for a closer look

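Among the saline P60 libraries, 18 groups of values of a member in a class were examined for a library far from the others, and 1 stood out, where chance gives about 1 in 20. It was Hbegf in inhibitory neurons, at 85.9 CPM in the second saline maintenance library against 54.0 CPM in the next of the 6 saline libraries. That value rests on 28 cells and 25 UMIs. The part of the small number of cells in it was not tested.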

How the results depend on the processing

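No paired analysis was possible because replicate numbers were given in accession order and the labels link no library of one group to a library of another. Of the changes with age in classes, 3 in the report, 5 were found without the filter on low counts, 5 without the fold cutoff, and 2 to 4 when each of 9 libraries was left out. The 2 added without the filter were Erbb3 in excitatory neurons, where 12 of 5934 P21 cells had a UMI, and Nrg3 in oligodendrocytes, where 0 of 548 P21 cells had one (Wilson upper bound 0.696%), so that no fold is given. Erbb4 in excitatory neurons, with a mean under 1 CPM at both ages and not tested in the report, was called with P21 libraries 2 and 3 summed (-1.03, adjusted p = 0.0489) and without P21 library 3 (-1.19, adjusted p = 0.0285). In neuronal clusters 4 changes became 3 with at least 30 cells a library, when the fall of Nrg3 in Exc_22 was not called, and 9 with all 12 P60 libraries, adding Erbb4 in Inhib_2 (-1.27, adjusted p = 0.0290) and Nrg3 in Exc_8, Exc_10, Exc_13 and Exc_14 (-0.63 to -0.95). Of cocaine at 48 h, 1 change became 0 with DESeq2 (Hbegf, adjusted p = 0.0581), and 0 to 1 with each library left out. At maintenance and at 15 days the count of members was 0 under all 8 other settings and all 12 left-out libraries.

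Egfr in inhibitory neurons and Erbb3 in oligodendrocytes passed under all 9 settings of the whole class and all 9 left-out libraries, Egfr between 0.92 and 1.43 and Erbb3 between -1.20 and -0.996 in the latter. Erbb4 in oligodendrocytes missed the threshold with DESeq2 (adjusted p = 0.0759), with P21 libraries 2 and 3 summed (0.0597), with the deposited class column (0.0544), and without the first saline library of 15 days (0.0566), P21 library 2 (0.118) or P21 library 3 (0.0689). Erbb2 in endothelial cells passed with the class column (adjusted p = 0.0311) and without the first saline library of 15 days (0.0383). Nrg1 in excitatory neurons, under 1.5-fold, had adjusted p-values of 0.0352 to 0.228 over these alternatives. Nrg3 in excitatory neurons passed 1.5-fold without the first P21 library (-0.60). Of the 9 fold changes refitted under these settings, none turned its direction. With the make-up of clusters held fixed the rise of Egfr in inhibitory neurons did turn, from 18.6 CPM at P21 to 15.9 CPM at the P21 make-up and from 63.8 to 41.3 CPM at the P60 make-up. The causes were not tested.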
